A study of Sus scrofa with 9 samples.

Results

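The genes described here encode the respiratory chain of mitochondria and the ATP synthase it drives, measured in pig esophagus and in spheroids grown from its glands. They are the genes whose symbol begins with NDUFA, NDUFB, NDUFC, NDUFS, NDUFV, SDHA to SDHD, UQCR, COX4 to COX8, ATP5 or CYC1, with the brightest single-symbol probe set standing for each gene. This gave 62 genes of 12217 tested: 31 subunits of complex I, 7 of its assembly factors, 3 genes of complex II, 2 of complex III, 7 assigned to complex IV and 12 to ATP synthase, which is also called complex V. A further 19 pig genes with such symbols, among them SDHA, SDHB, SDHC, NDUFS7, COX7A1 and NDUFA4, are not analysed here. All members are encoded in the nucleus. The array's older symbols are kept, so that ATP5A1 and ATP5B are the genes now named ATP5F1A and ATP5F1B.

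Complex I takes electrons from NADH and complex II takes them from succinate, and both pass them through ubiquinone to complex III, cytochrome c and complex IV, where oxygen is reduced to water. Complexes I, III and IV pump protons across the inner mitochondrial membrane, and ATP synthase lets the protons flow back to make ATP. Complexes I, III, IV and V combine subunits encoded in the nucleus with subunits encoded in mitochondrial DNA (mtDNA), whereas complex II is encoded entirely in the nucleus. Complex I has an arm in the matrix, which holds the flavin and the iron-sulfur clusters, and an arm in the membrane, which pumps protons.

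Each of 9 arrays held total RNA of a single sample, with 3 arrays per group and no technical replicates. ESMG are the esophageal submucosal glands of pigs 37, 39 and 40, labelled as control esophagus, and the squamous tissue is the lining above the glands of the same pigs. The spheroids, grown in vitro from ESMG, are labelled pig 1, 2 and 3, and the labels do not say how these animals relate to the others. They grew in Matrigel under Advanced DMEM/F12 with B27, N2, 10 mM HEPES and 50 ng/ml human epidermal growth factor. No genetic change or drug treatment is named for any group. Spheroid RNA came from another Qiagen kit than tissue RNA, so the kit and the culture cannot be told apart. Values are log2 RMA levels, on which 1 unit is a 2-fold difference, and the precision is limited by the 3 arrays per group. Array medians over all probe sets ran from 6.84 to 7.04. Levels are compared between arrays for a gene, never between genes.

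The labels were set against marker genes fixed for this work. Of 9 gland and duct markers 7 were measured, with a mean level per array of 10.58 to 11.35 in ESMG, 7.44 to 8.31 in squamous tissue and 9.40 to 9.63 in spheroids; 3 of the 7 were called lower in spheroids than in ESMG, and 5 were called higher and 1 lower than in squamous tissue. The 3 measured markers of upper squamous layers (CRNN, A2ML1 and SPINK5) had a mean of 12.31 to 12.70 in ESMG, close to the 12.92 to 13.00 in squamous tissue, against 8.51 to 8.54 in spheroids, where all 3 were called lower. The ESMG arrays thus held transcripts of upper squamous layers beside those of glands. The 4 measured smooth muscle markers had a mean of 9.80 to 10.44 in ESMG and 10.97 to 11.35 in squamous tissue. Of these, SYNPO2 and PLN were called lower in ESMG and none was called higher. Both tissues thus held smooth muscle transcripts, at higher levels on the squamous arrays.

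Respiratory chain genes were mostly higher in spheroids than in ESMG. At an adjusted p under 0.05 (limma, Benjamini-Hochberg over all 12217 genes, two-sided), 36 of the 62 rose and 1 fell; over all genes, 23.9% rose and 17.6% fell. With a fold of at least 2 as well, which is what "called" means from here on, 13 members were called higher and none lower, against 7.99% of all genes called higher and 8.91% called lower. The median log2 difference of the 62 was 0.50, with quartiles of 0.26 and 0.90, beside a median of 0.09 over all genes. All 3 spheroid arrays lay above all 3 ESMG arrays for 42 members and below them for 2, where 30.3% and 21.0% of all genes did so. In bulk RNA, a change in RNA per cell and a change in the share of each cell type cannot be told apart.

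Against squamous tissue, 38 of the 62 members rose in spheroids and none fell, beside 23.6% and 17.4% of all genes. Called members numbered 12, all higher, with 8.61% of all genes called higher and 8.05% called lower. The median log2 difference was 0.58 beside 0.03 over all genes, and the arrays did not overlap for 43 members, all above (28.6% of all genes above and 21.9% below). Both comparisons use the same 3 spheroid arrays, so they are not independent of each other. Setting array medians equal moved the median of all genes from 0.09 to 0.20 against ESMG and from 0.03 to 0.16 against squamous tissue, and the median of the members to 0.61 and 0.71. After cyclic loess the members' medians were 0.36 and 0.50 and the called members numbered 8 and 7, all higher.

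**Figure D1:**
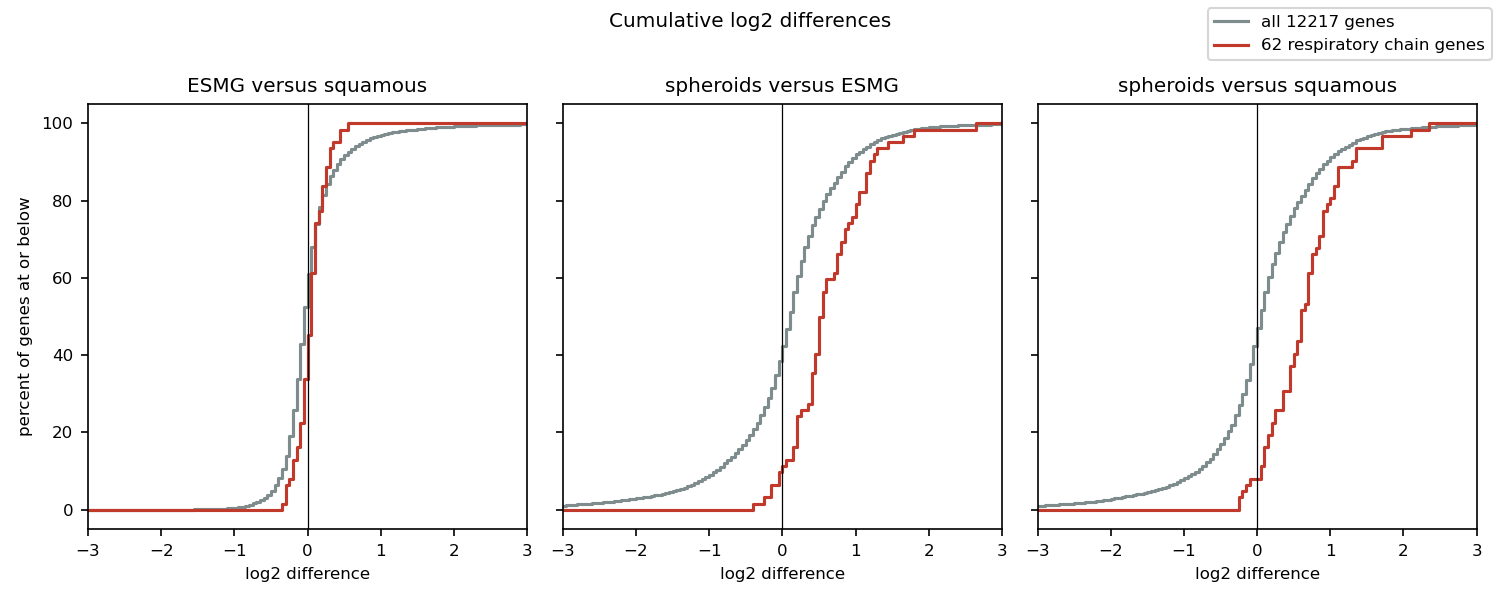
Cumulative share of genes (percent, vertical axis) at or below each log2 difference (horizontal axis) for the 62 respiratory chain genes and for all 12217 genes, in each of the 3 comparisons. In both spheroid comparisons the curve of the respiratory chain genes lies to the right of that of all genes over most of the range, with medians of 0.50 and 0.58, and in ESMG versus squamous the medians are 0.02 and -0.06.

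**Figure D2:**
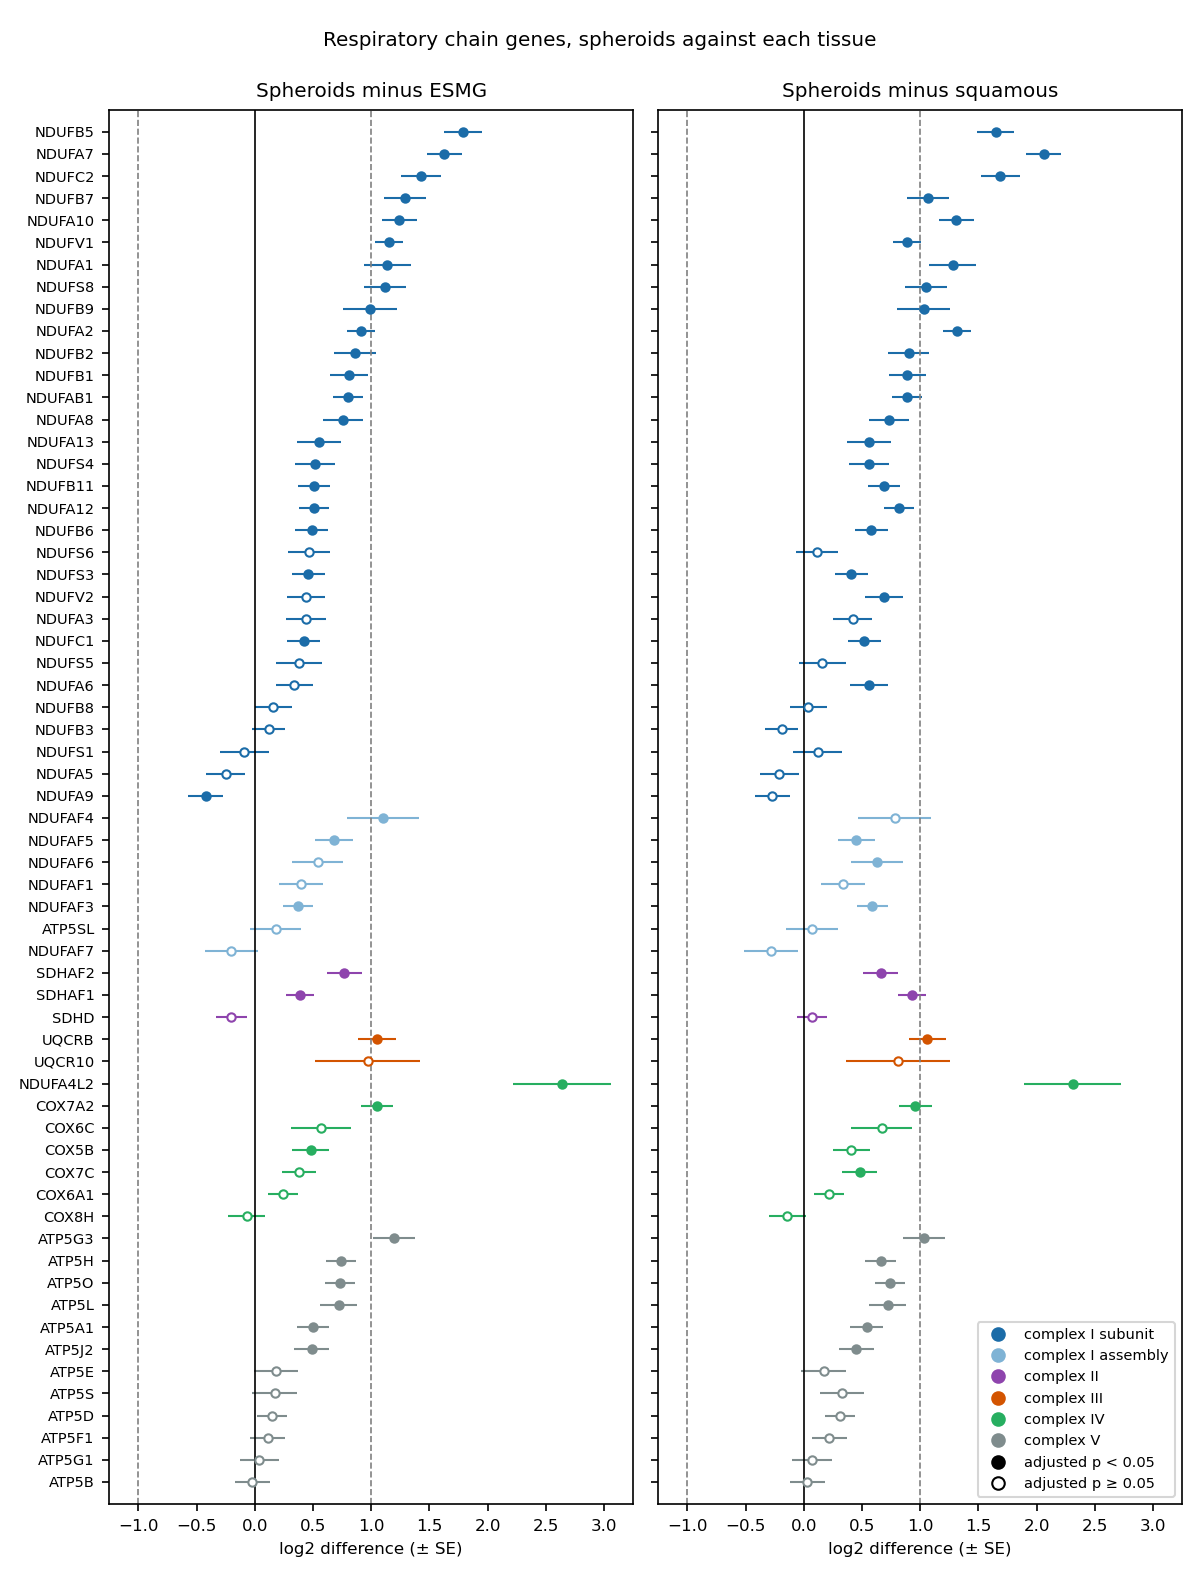
Log2 difference (horizontal axis, with its SE) of each of the 62 members between spheroids and ESMG (left) and between spheroids and squamous tissue (right), grouped by complex. Filled points have an adjusted p under 0.05 and dashed lines mark a 2-fold difference; NDUFA4L2 has the largest difference, 2.64 and 2.31, and NDUFA9 the lowest against ESMG, -0.42.

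Complex I is the largest group, with 31 subunits among the 62 members. Against ESMG 21 of the 31 rose and 1 fell, and 8 were called (25.8%, where 21.0% of all members and 7.99% of all genes were called higher; median log2 difference 0.52). Against squamous tissue 23 rose and none fell, and 9 were called (29.0%, where 19.4% of all members and 8.61% of all genes were; median 0.69). In the matrix arm, 7 of 13 subunits rose against ESMG and 9 of 13 against squamous tissue, and in the membrane arm 13 of 17 rose in each comparison. At the same adjusted p, 23.9% of all genes rose and 17.6% fell against ESMG, and 23.6% rose and 17.4% fell against squamous tissue. No test was made between the arms.

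The matrix arm subunit with the largest rise was NDUFA7, an accessory subunit. Its levels were 9.80, 9.55 and 9.60 in ESMG, 9.16, 9.31 and 9.20 in squamous tissue and 11.17, 11.56 and 11.11 in spheroids. The spheroid arrays stood clear of both tissues, at 3.09-fold the ESMG level (log2 difference 1.63, SE 0.15, adjusted p = 8.17e-06) and 4.16-fold the squamous level (log2 difference 2.06, SE 0.15, adjusted p = 1.27e-06). NDUFV1, which binds the flavin that accepts electrons from NADH, lay at 8.37, 8.46 and 8.48 in ESMG, 8.63, 8.77 and 8.68 in squamous tissue and 9.58, 9.69 and 9.49 in spheroids. No spheroid array overlapped a tissue array, and NDUFV1 was 2.22-fold higher than in ESMG (log2 difference 1.15, SE 0.12, adjusted p = 2.39e-05); against squamous tissue it rose by less than 2-fold (log2 difference 0.89, SE 0.12, adjusted p = 0.00015). NDUFS8, an iron-sulfur subunit on the path of electrons to ubiquinone, read 8.22, 8.31 and 8.53 in ESMG, 8.17, 8.56 and 8.54 in squamous tissue and 9.44, 9.78 and 9.22 in spheroids. Its rise was 2.17-fold over ESMG (log2 difference 1.12, SE 0.18, adjusted p = 0.000357) and 2.08-fold over squamous tissue (log2 difference 1.05, SE 0.18, adjusted p = 0.000553), again without overlap. The 2 probe sets named NDUFS8 held identical values and count once, as did those of COX7A2 and of SDHAF1. For these genes the choice of probe set cannot change the levels.

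NDUFA2, a small accessory subunit of the same arm, measured 9.34, 9.31 and 9.40 in ESMG, from 8.82 to 9.03 on the squamous arrays and 10.32, 10.25 and 10.23 in spheroids. The 3 groups did not overlap. The difference was called against squamous tissue (2.49-fold; log2 difference 1.32, SE 0.12, adjusted p = 7.74e-06) and was 1.88-fold against ESMG (log2 difference 0.91, SE 0.12, adjusted p = 0.000124), short of the fold minimum. With all arrays, NDUFS1, NDUFA9 and NDUFS6 of the same arm did not pass the test for a rise in either comparison. NDUFS1, the largest iron-sulfur subunit of the complex, lay at 9.63, 9.62 and 9.29 in ESMG, 9.18, 9.07 and 9.68 in squamous tissue and 9.36, 9.14 and 9.79 in spheroids. Its groups overlapped, with log2 differences of -0.09 (adjusted p = 0.77) and 0.12 (adjusted p = 0.708). NDUFA9, which sits where the arms join, was the single member that fell against ESMG. Its levels were 10.65, 10.44 and 10.23 in ESMG, 10.46, 10.11 and 10.28 in squamous tissue and 10.03, 9.90 and 10.12 in spheroids, so the spheroid arrays lay below every ESMG array (log2 difference -0.42, SE 0.15, adjusted p = 0.0445) and overlapped the squamous arrays (log2 difference -0.27, SE 0.15, adjusted p = 0.2). That adjusted p was 0.142 with array medians set equal, and it was over 0.05 in 7 of the 9 fits that left out an array, at up to 0.170 without the ESMG array of pig 37. NDUFS6, which carries a zinc site, had the lowest ESMG minus squamous difference of all members, -0.36 (adjusted p = 0.317), and log2 differences of 0.47 and 0.11 in spheroids (adjusted p = 0.0536 and 0.678); against ESMG the adjusted p was 0.0279 without the squamous array of pig 39 and 0.0312 without the spheroid array of pig 3.

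In the membrane arm, NDUFB5 had the largest rise against ESMG and NDUFC2 against squamous tissue. NDUFB5, an accessory subunit, measured 7.63, 7.85 and 7.98 in ESMG, 7.67, 8.07 and 8.14 in squamous tissue and 9.70, 9.54 and 9.60 in spheroids. Every spheroid array was above every tissue array, a 3.47-fold rise over ESMG (log2 difference 1.79, SE 0.16, adjusted p = 5.41e-06) and a 3.15-fold rise over squamous tissue (log2 difference 1.65, SE 0.16, adjusted p = 8.72e-06). NDUFC2, another accessory subunit of this arm, lay at 6.81, 7.24 and 7.13 in ESMG, 6.65, 6.71 and 7.07 in squamous tissue and 8.44, 8.70 and 8.34 in spheroids. It was 2.7-fold higher than in ESMG (log2 difference 1.43, SE 0.17, adjusted p = 4.92e-05) and 3.22-fold higher than in squamous tissue (log2 difference 1.69, SE 0.17, adjusted p = 1.40e-05), with no overlap. NDUFA10, an accessory subunit related to nucleoside kinases, read 8.15, 8.35 and 8.49 in ESMG, 8.08, 8.37 and 8.34 in squamous tissue and 9.60, 9.72 and 9.39 in spheroids. Here too the spheroids stood apart, by 1.24 and 1.31 on the log2 scale (SE 0.15, adjusted p = 5.67e-05 and 3.83e-05). NDUFA1, a short subunit needed for assembly of the arm, lay at 6.02, 6.07 and 5.73 in ESMG, 5.55, 5.57 and 6.29 in squamous tissue and 7.07, 7.23 and 6.96 in spheroids. Its tissue levels are near the lower quartile of the arrays (5.36 to 5.65), where RMA compresses differences; the rise was 2.21-fold over ESMG (log2 difference 1.14, SE 0.20, adjusted p = 0.000732) and 2.43-fold over squamous tissue (log2 difference 1.28, SE 0.20, adjusted p = 0.000336).

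NDUFB7, which faces the intermembrane space, measured 7.40, 7.43 and 7.72 in ESMG, 7.49, 7.95 and 7.75 in squamous tissue and 8.82, 9.05 and 8.53 in spheroids. It was 2.45-fold higher than in ESMG (log2 difference 1.29, SE 0.18, adjusted p = 0.00013) and 2.1-fold higher than in squamous tissue (log2 difference 1.07, SE 0.18, adjusted p = 0.000475). NDUFB9, a subunit of the LYR protein family, read 8.63, 8.70 and 8.74 in ESMG, 8.58, 8.59 and 8.78 in squamous tissue and 9.82, 10.16 and 9.06 in spheroids. The spheroids spread widely but did not overlap the tissues, and the difference was called against squamous tissue (log2 difference 1.03, SE 0.23, adjusted p = 0.00351) and just under the fold minimum against ESMG (log2 difference 0.99, SE 0.23, adjusted p = 0.00433). Several of these calls depended on a single array through the fold minimum. Against ESMG, NDUFS8 was at 0.97 without the spheroid array of pig 2, and NDUFB9 was called without the ESMG array of pig 40 (1.02) or the spheroid array of pig 3 (1.30). Against squamous tissue, NDUFB7 was at 0.95 without the squamous array of pig 37 or the spheroid array of pig 2, and NDUFS8 at 0.93 and 0.90 without the same arrays. NDUFB9 was under 2-fold without the squamous array of pig 37 (0.99) or 39 (1.00 after rounding, but under the minimum) or the spheroid array of pig 1 (0.96) or 2 (0.79). The adjusted p stayed under 0.05 in each of these fits, at 0.0174 or less.

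The remaining complex I subunits rose by less than 2-fold or did not pass the test. NDUFAB1, the mitochondrial acyl carrier protein that is part of both arms, rose by 0.80 against ESMG (SE 0.13, adjusted p = 0.000523) and by 0.89 against squamous tissue (adjusted p = 0.000251). NDUFB1, NDUFB2 and NDUFA8 differed from ESMG by 0.81, 0.86 and 0.76 (adjusted p = 0.00161, 0.00194 and 0.00372). NDUFB3, NDUFB8 and NDUFA5 had log2 differences of 0.12, 0.16 and -0.25 against ESMG (adjusted p = 0.536, 0.461 and 0.259). These 7 subunits and NDUFA6 fall outside the rule for named genes and were chosen after their values were seen. NDUFA6 had 2 probe sets that disagreed: against squamous tissue the brighter rose by 0.56 (adjusted p = 0.0157) and the dimmer fell by 0.59 (adjusted p = 0.00716), and the mean of both gave -0.02, so its direction is not settled here. Its rise on the brighter probe set had an adjusted p of 0.0580 and 0.0638 without the spheroid array of pig 1 or 2. Against squamous tissue NDUFB1 and NDUFB2 differed by 0.89 and 0.90, and passed 2-fold without the squamous array of pig 40 (1.04 and 1.07) or the spheroid array of pig 3 (1.00 and 1.01).

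Of 7 complex I assembly factors, 3 rose against ESMG and 3 against squamous tissue, none fell, and the medians were 0.40 and 0.45. The share that rose was 42.9% in each comparison, beside 23.9% and 23.6% of all genes. NDUFAF4, which acts early in assembly together with NDUFAF3, was the one called. Its levels were 8.13, 6.85 and 6.64 in ESMG, 7.64, 7.27 and 7.67 in squamous tissue and 8.34, 8.12 and 8.47 in spheroids. The ESMG array of pig 37 lay level with the spheroids while the other ESMG arrays were lower, so the call against ESMG (log2 difference 1.10, SE 0.31, adjusted p = 0.0138) was lost without the ESMG array of pig 39 (0.93, adjusted p = 0.0560) or 40 (0.82, adjusted p = 0.0494), and the difference was 1.56 without that of pig 37. Against squamous tissue the arrays did not overlap (log2 difference 0.78, SE 0.31, adjusted p = 0.0661; adjusted p = 0.00284 and 0.0376 without the ESMG array of pig 37 or 40). NDUFAF3 lay at 9.06, 8.96 and 8.94 in ESMG, 8.61, 8.80 and 8.88 in squamous tissue and 9.32, 9.47 and 9.25 in spheroids. It rose by 0.37 (adjusted p = 0.0449) and 0.59 (adjusted p = 0.00391), and its adjusted p against ESMG was 0.0508 to 0.142 in 7 of the 9 fits that left out an array, all but those without the squamous array of pig 39 or 40. NDUFAF7 had the lowest differences of this group, -0.20 and -0.28 (adjusted p = 0.534 and 0.371). NDUFAF5 and NDUFAF6, named after their values were seen, rose against squamous tissue by 0.45 and 0.63 (adjusted p = 0.0427 and 0.0425). For NDUFAF5 that was 0.0533 to 0.170 without the ESMG or squamous array of pig 37 or 39 or the spheroid array of pig 1 or 3. For NDUFAF6, a dim gene, it was 0.0525 to 0.151 without the ESMG or squamous array of pig 39 or the same spheroid arrays. ATP5SL belongs to this group by function, since it is now named DMAC2 and acts in complex I assembly.

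In complex II both measured assembly factors rose and the measured subunit gave no single answer. SDHAF2, which attaches the flavin to SDHA, measured 7.50, 7.62 and 7.61 in ESMG, 7.48, 7.98 and 7.57 in squamous tissue and 8.36, 8.36 and 8.31 in spheroids. It rose by 0.77 against ESMG (SE 0.15, adjusted p = 0.00144) and by 0.66 against squamous tissue (adjusted p = 0.00367). SDHAF1, which helps to insert iron-sulfur clusters into SDHB, lay at 6.74, 6.70 and 6.67 in ESMG, 6.12, 6.16 and 6.22 in squamous tissue and 7.17, 7.06 and 7.05 in spheroids. The 3 groups did not overlap and were ordered squamous, ESMG, spheroids, with rises of 0.39 over ESMG (adjusted p = 0.0201) and 0.93 over squamous tissue (adjusted p = 8.25e-05). The rise over ESMG had an adjusted p of 0.0551 with the gland array of pig 39 left out and 0.0874 without the spheroid array of pig 1. SDHD, a membrane anchor of the complex, read 11.54, 11.46 and 11.41 in ESMG, 11.24, 11.13 and 11.25 in squamous tissue and 11.24, 11.19 and 11.40 in spheroids on its brighter probe set. That probe set differed by -0.20 (adjusted p = 0.24) and 0.07 (adjusted p = 0.717), whereas a dimmer one for the same gene rose by 0.66 (adjusted p = 0.00186) and 0.76 (adjusted p = 0.000732). The dimmer probe set lay at only 5.5 to 5.8 on the tissue arrays and 6.2 to 6.4 on the spheroid arrays. Its tissue levels are near the lower quartile of the arrays (5.36 to 5.65), so its rise is the less certain reading.

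For complex III 2 small subunits were measured. UQCRB, which lies near the ubiquinone-binding site, was at 9.02, 8.79 and 8.47 in ESMG, 8.77, 8.64 and 8.86 in squamous tissue and 9.90, 9.90 and 9.63 in spheroids. No array overlapped, and the rise was 2.07-fold over ESMG (log2 difference 1.05, SE 0.16, adjusted p = 0.00032) and 2.08-fold over squamous tissue (log2 difference 1.06, SE 0.16, adjusted p = 0.000308). It fell under the fold minimum against ESMG when the gland array of pig 40 was left out (0.90) and against squamous tissue without the squamous array of pig 39 (1.00 after rounding, but under the minimum). UQCR10 was the least settled member, at 8.95, 8.95 and 9.42 in ESMG, 9.06, 9.38 and 9.37 in squamous tissue and 11.11, 10.40 and 8.73 in spheroids. The spheroid arrays of pigs 1 and 2 lay above every tissue array and that of pig 3 below every one. With all arrays the difference from ESMG was 0.97 (SE 0.45, adjusted p = 0.104) and that from squamous tissue 0.81 (adjusted p = 0.179). Without the spheroid array of pig 3 they were 1.65 (adjusted p = 0.000339) and 1.48 (adjusted p = 0.000643).

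Of 7 genes assigned to complex IV, 3 rose and none fell in each comparison (42.9%, beside 23.9% and 23.6% of all genes). NDUFA4L2, counted among these 3 in each comparison, had the largest difference of all 62 members. It is placed here only as a paralog of NDUFA4, a subunit that copurifies with complex IV, and is known as a gene induced by hypoxia. Its levels were 7.03, 7.41 and 7.77 in ESMG, 7.39, 8.27 and 7.53 in squamous tissue and 10.33, 10.89 and 8.91 in spheroids. Each spheroid array exceeded each tissue array, although the spheroid of pig 3 was well under those of pigs 1 and 2. NDUFA4L2 was 6.22-fold higher than in ESMG (log2 difference 2.64, SE 0.42, adjusted p = 0.000381) and 4.97-fold higher than in squamous tissue (log2 difference 2.31, SE 0.42, adjusted p = 0.000947), with log2 differences from 2.21 to 3.20 and from 1.89 to 2.88 when single arrays were left out.

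COX7A2, the form of subunit VIIa found in most tissues, lay at 9.21, 9.32 and 9.28 in ESMG, 9.10, 9.54 and 9.45 in squamous tissue and 10.35, 10.35 and 10.26 in spheroids. The spheroids agreed closely and did not overlap the tissues, with a 2.07-fold rise over ESMG (log2 difference 1.05, SE 0.14, adjusted p = 0.000127) and a 1.94-fold rise over squamous tissue (log2 difference 0.96, SE 0.14, adjusted p = 0.000238). The latter passed 2-fold without the squamous array of pig 39 (1.05) or 40 (1.00). Subunits of the same complex that did not reach 2-fold were COX5B, which binds zinc, at 0.48 and 0.41 (adjusted p = 0.0318 and 0.0613), and COX7C at 0.38 and 0.48 (adjusted p = 0.0571 and 0.0214). The adjusted p of COX5B against ESMG was 0.0789 to 0.112 without the ESMG array of pig 37 or 39 or the spheroid array of pig 1 or 2, and against squamous tissue 0.0388 and 0.0419 without the squamous array of pig 40 or the spheroid array of pig 3. That of COX7C against squamous tissue was 0.0649 to 0.0752 without the squamous array of pig 37 or 39 or the spheroid array of pig 2, and against ESMG 0.0440 and 0.0445 without the squamous array of pig 39 or 40. COX6A1, the non-muscle form of subunit VIa, measured 12.07, 12.24 and 12.33 in ESMG, 12.10, 12.20 and 12.40 in squamous tissue and 12.47, 12.45 and 12.43 in spheroids. Its arrays did not overlap, but the differences of 0.24 and 0.22 did not pass the test (adjusted p = 0.19 and 0.235). COX8H, the heart and muscle form of subunit VIII, stayed between 5.48 and 5.94 on all arrays, near the lower quartile, with overlapping groups.

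Of 12 genes assigned to ATP synthase, 6 rose against each tissue and none fell (50.0%, beside 23.9% and 23.6% of all genes that rose). The 12 include ATP5S, placed there as a gene related to the complex. ATP5A1, the alpha subunit, read 10.63, 10.55 and 10.53 in ESMG, 10.52, 10.40 and 10.65 in squamous tissue and 11.05, 10.90 and 11.23 in spheroids. It rose by 0.50 (adjusted p = 0.0117) and 0.54 (adjusted p = 0.00763). ATP5B, the beta subunit, lay at 12.38, 12.38 and 12.46 in ESMG, 12.20, 12.30 and 12.58 in squamous tissue and 12.40, 12.17 and 12.58 in spheroids. Its groups overlapped, with differences of -0.02 (SE 0.15, adjusted p = 0.913) and 0.03 (adjusted p = 0.917). ATP5D, the delta subunit of the central stalk, differed by 0.15 and 0.31 (adjusted p = 0.384 and 0.0725).

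The ring through which protons pass is built from subunit c, which separate genes encode as the same mature protein. Of these, ATP5G3 was called. It measured 9.70, 9.75 and 10.02 in ESMG, 9.59, 10.20 and 10.18 in squamous tissue and 11.07, 11.12 and 10.87 in spheroids. No array overlapped, and the rise was 2.29-fold over ESMG (log2 difference 1.20, SE 0.18, adjusted p = 0.000263) and 2.04-fold over squamous tissue (log2 difference 1.03, SE 0.18, adjusted p = 0.000759); the latter was under 2-fold without the squamous array of pig 37 (0.83) or the spheroid array of pig 2 (0.98). ATP5G1, named for this contrast after its values were seen, lay at 11.93, 11.38 and 11.86 in ESMG, 11.68, 11.69 and 11.68 in squamous tissue and 11.84, 11.51 and 11.93 in spheroids. Its differences were 0.04 and 0.07 (adjusted p = 0.887 and 0.783), and the difference between the 2 genes was not tested. Stalk and membrane subunits ATP5H, ATP5O, ATP5L and ATP5J2 also rose against ESMG, by 0.74, 0.73, 0.72 and 0.49 (adjusted p = 0.000844, 0.000812, 0.00317 and 0.0221), and complete the 6 that rose; they were named after their values were seen. The adjusted p of ATP5J2 was 0.0634 to 0.0775 against ESMG without the ESMG array of pig 37 or 39 or the spheroid array of pig 1 or 2, and 0.0508 to 0.156 against squamous tissue without the squamous array of pig 37 or 39 or the same spheroid arrays.

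**Figure D3:**
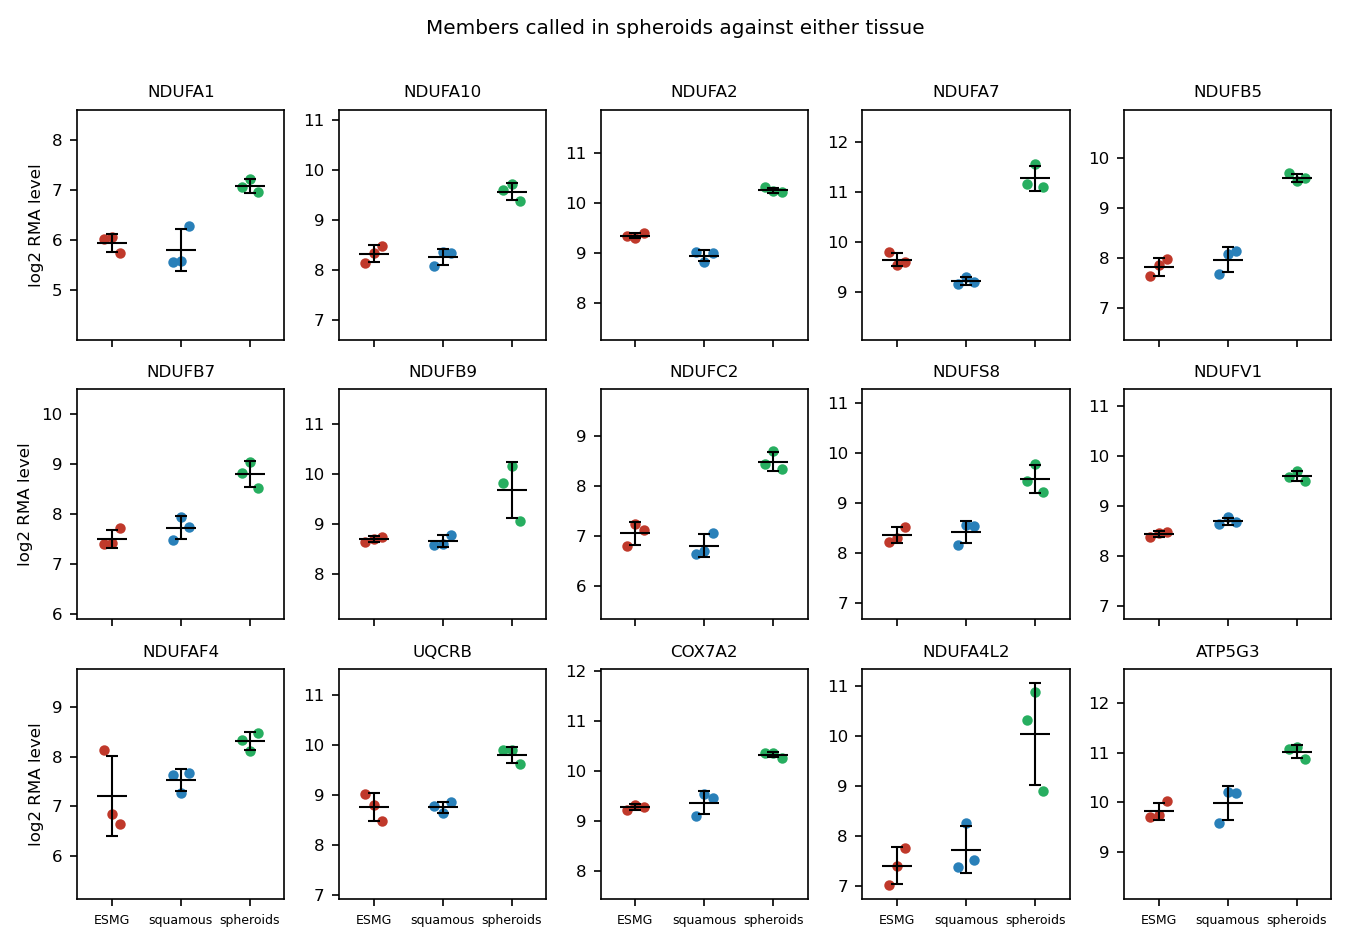
Log2 RMA level (vertical axis, each panel spanning the same range of units) on each of the 9 arrays for the 15 members called in spheroids against at least 1 tissue; points are arrays, bars the mean and SD of 3. Spheroids lie above both tissues in every panel except NDUFAF4, where the ESMG array of pig 37, at 8.13, reaches the lowest spheroid array, at 8.12.

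Between ESMG and squamous tissue the respiratory chain genes differed little. The ESMG arrays also held transcripts of upper squamous layers, and both tissues held smooth muscle transcripts. How far this mixing affects the differences was not tested, so they do not compare gland cells with squamous cells. None of the 62 was called, where 2.65% of all genes were called higher and 0.409% lower in ESMG. At an adjusted p under 0.05 alone, 1 member rose and none fell (4.40% and 1.65% of all genes). The median log2 difference of the members was 0.02, with a range from -0.36 to 0.53, beside -0.06 over all genes. The one that rose was SDHAF1, with a mean of 6.70 ± 0.03 (SD, n = 3) in the glands against 6.17 ± 0.05 (SD, n = 3) in squamous tissue, and it was higher in 3 of 3 pigs (log2 difference 0.53, SE 0.12, adjusted p = 0.0224). Its adjusted p was 0.129 with pig as a fixed block, 0.0603 in a fit of the 6 tissue arrays, and 0.0514 to 0.0936 without the ESMG array of pig 37 or 39 or any single squamous array. Without the ESMG array of pig 37, NDUFAF4 passed the test instead, lower in ESMG (-0.78, adjusted p = 0.0453). ESMG arrays lay above all squamous arrays for 7 members and below for 3, where 9.88% and 11.7% of all genes did so.

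Subunits of the same complexes that are encoded in mtDNA moved the other way. Of 13 such genes 8 were measured, and 6 fell and none rose in spheroids against ESMG, where 17.6% of all genes fell. Against squamous tissue 5 fell and none rose, with 17.4% of all genes falling. Their median log2 differences were -0.56 and -0.47. These transcripts come from polycistronic precursors transcribed within mitochondria, apart from the nuclear genes. CYTB, the mtDNA-encoded subunit of complex III, measured 13.23, 13.28 and 12.86 in ESMG, 13.12, 12.97 and 12.84 in squamous tissue and 12.32, 12.10 and 12.46 in spheroids. CYTB and the other mtDNA genes apart from ND2 were named after their values were seen. Every spheroid array lay below every tissue array for CYTB, by -0.83 (SE 0.16, adjusted p = 0.00139) against ESMG and -0.68 (adjusted p = 0.00477) against squamous tissue. ND1, a membrane subunit of complex I beside its ubiquinone site, lay at 13.39, 13.39 and 13.15 in ESMG, 13.31, 13.20 and 13.12 in squamous tissue and 12.78, 12.60 and 12.60 in spheroids. It fell by 0.64 on the log2 scale against ESMG (adjusted p = 0.00224) and by 0.55 against squamous tissue (adjusted p = 0.00615).

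ND3, another complex I subunit, read 12.87, 13.03 and 12.65 in ESMG, 12.77, 12.91 and 12.57 in squamous tissue and 12.22, 12.02 and 11.94 in spheroids. Its falls were -0.79 (adjusted p = 0.00145) and -0.69 (adjusted p = 0.00338). ND5, a proton-pumping subunit, was -0.47 (adjusted p = 0.013) and -0.40 (adjusted p = 0.0295) away from the tissues, with an adjusted p of 0.0576 against ESMG without the gland array of pig 39 and of 0.0511 to 0.102 against squamous tissue without the squamous array of pig 37 or 39 or the spheroid array of pig 1 or 2. ND2 was the one called, against squamous tissue; its levels were 8.12, 7.57 and 6.87 in ESMG, 7.91, 7.97 and 7.72 in squamous tissue and 6.76, 6.50 and 6.75 in spheroids. It differed by -1.20 from squamous tissue (SE 0.25, adjusted p = 0.00249) and by -0.85 from ESMG (adjusted p = 0.0175), the latter being -1.17 without the ESMG array of pig 40, the lowest of the tissue arrays, -0.55 (adjusted p = 0.0628) without that of pig 37, and -0.76 (adjusted p = 0.0639) without the spheroid array of pig 2. The catalytic subunits of complex IV had smaller differences. COX1, which holds the site where oxygen is reduced, was at -0.33 and -0.23 (adjusted p = 0.0536 and 0.173), and COX2 at -0.42 and -0.33 (adjusted p = 0.0493 and 0.115). Against ESMG, COX1 had an adjusted p of 0.0445 without the ESMG array of pig 40, and COX2 one of 0.0551 to 0.171 without any single array other than that one. ND6, which is transcribed from the opposite strand of mtDNA, had differences of 0.39 and 0.48 (adjusted p = 0.151 and 0.0868), or 0.60 and 0.68 (adjusted p = 0.0317 and 0.0183) without the spheroid array of pig 3. The levels of ND1, ND3, ND5, CYTB, COX1 and COX2 lie near the top of the range of the arrays, and whether that limited their differences was not tested.

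Set against the mean of the 6 tissue arrays, gene by gene, the 62 nuclear genes had a median of 0.55, 0.61 and 0.54 on the spheroid arrays of pigs 1, 2 and 3, and the 8 mtDNA genes -0.46, -0.58 and -0.50. On the tissue arrays the medians lay between -0.13 and 0.13 for the nuclear genes and between -0.15 and 0.14 for the mtDNA genes. The median over all genes was 0.02 to 0.08 on spheroid arrays. The opposite signs held under every scaling tried: the mtDNA median ranged from -0.65 to -0.45 against ESMG and from -0.56 to -0.35 against squamous tissue over all settings, and the nuclear median from 0.36 to 0.61 and from 0.50 to 0.71. No test compares the sets.

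**Figure D4:**
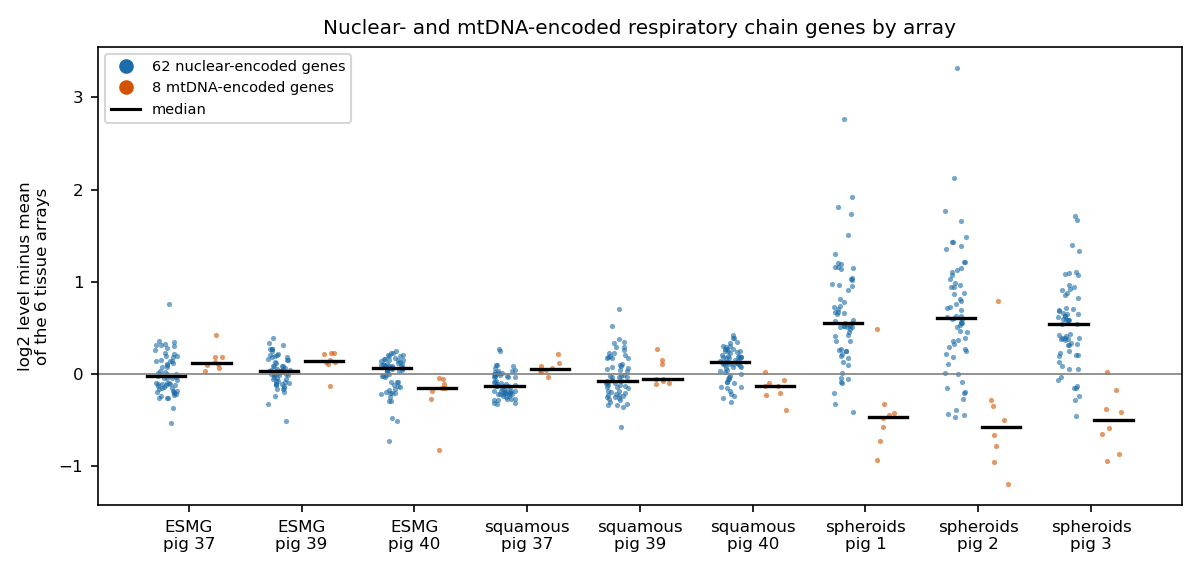
Log2 level minus the gene's mean over the 6 tissue arrays (vertical axis) for the 62 nuclear-encoded and the 8 mtDNA-encoded genes on each of the 9 arrays (horizontal axis); points are genes and black lines medians. On the 3 spheroid arrays the nuclear medians are 0.55, 0.61 and 0.54 and the mtDNA medians -0.46, -0.58 and -0.50; the mtDNA point above the others there is ND6.

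Within groups, the median SD was 0.15 in ESMG, 0.20 in squamous tissue and 0.18 in spheroids, against 0.19, 0.19 and 0.17 over all genes. In spheroids, 4 members had an SD over 0.5 (NDUFA4L2, UQCR10, NDUFB9 and ATP5SL). The spheroid array of pig 3 was the lowest of its group for 41 of 62 members (66.1%, against 41.9% of all genes), and that of pig 1 for 2. In both tissues the array of pig 37 was most often the lowest, for 32 members in ESMG (51.6%, against 33.3% of all genes) and 36 in squamous tissue (58.1%, against 29.3%).

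Other genes that serve the mitochondrion were followed through 9 further lists. Beside their counts, 23.9% of all genes rose and 17.6% fell against ESMG. Against squamous tissue 23.6% of all genes rose and 17.4% fell. No list was tested as a set. Of a list of cytochrome c, regulators of ATP synthase and the channels and carriers that supply it, 6 genes were measured, of which 4 rose against ESMG and 4 against squamous tissue. They were the phosphate carrier SLC25A3 and the outer membrane channels VDAC1, VDAC2 and VDAC3, by 0.60 to 0.77 against ESMG, none called, and all 4 were named after their values were seen. Against squamous tissue the adjusted p of VDAC3 was 0.0669 to 0.0878 without the squamous array of pig 37 or 39 or the spheroid array of pig 1 or 3, and VDAC2 (0.99) passed 2-fold without the squamous array of pig 40 (1.04) or the spheroid array of pig 2 (1.03). Of 15 import genes, 7 rose and 1 fell against ESMG and 5 rose against squamous tissue. TIMM44, which tethers the import motor to the inner membrane, was at 7.44, 7.42 and 7.48 in ESMG and 8.54, 8.61 and 8.39 in spheroids (log2 difference 1.07, SE 0.13, adjusted p = 4.56e-05), with no overlap. TIMM9, a chaperone of the intermembrane space, was called against ESMG (1.05, adjusted p = 0.00208) and squamous tissue (1.02, adjusted p = 0.00251). It was under 2-fold without the ESMG array of pig 40 (0.82), the squamous array of pig 39 (0.85) or the spheroid array of pig 2 (0.95 and 0.92).

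Of 13 genes of the citric acid cycle and pyruvate dehydrogenase, 5 rose and none fell in each comparison. Here and for the lists that follow, 23.9% and 23.6% of all genes rose, and 17.6% and 17.4% fell. IDH3G, a regulatory subunit of NAD-dependent isocitrate dehydrogenase, was called at 1.02 against ESMG (adjusted p = 0.000219) and 1.07 against squamous tissue (adjusted p = 0.000152), and was under 2-fold without the ESMG array of pig 37 (0.95) or the spheroid array of pig 2 (0.96) and, against squamous tissue, without the squamous array of pig 40 (0.96). Of 5 further complex I assembly factors 2 rose against ESMG; ECSIT was called there (1.08, adjusted p = 9.72e-05), at 0.94 against squamous tissue (adjusted p = 0.000266; 1.01 and called without the squamous array of pig 40). Of 9 assembly factors of complexes III to V, 5 rose and 1 fell against ESMG and 4 rose and 1 fell against squamous tissue. COX17, a copper carrier for complex IV, was called against squamous tissue (1.13, adjusted p = 8.92e-05). LYRM7, a factor in the maturation of the iron-sulfur protein of complex III, fell by 1.43 on the log2 scale against ESMG (adjusted p = 0.000498) and by 1.00 against squamous tissue (adjusted p = 0.00523), the latter 2-fold or more without the squamous array of pig 39 (-1.22) or the spheroid array of pig 3 (-1.13).

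Fatty acid oxidation genes fell more often than they rose. Of 13 genes, 5 fell and 1 rose in each comparison, where 17.6% and 17.4% of all genes fell and 23.9% and 23.6% rose. Called lower were 4 against ESMG and 3 against squamous tissue, beside 8.91% and 8.05% of all genes. DECR1, needed to oxidise unsaturated fatty acids, lay at 10.09, 10.37 and 9.44 in ESMG, 9.61, 9.48 and 9.69 in squamous tissue and 7.96, 7.91 and 8.92 in spheroids. It fell by 1.71 against ESMG (adjusted p = 0.000475) and by 1.33 against squamous tissue (adjusted p = 0.00251). ACADL, a long-chain acyl-CoA dehydrogenase, measured 8.63, 8.97 and 8.97 in ESMG, 9.07, 9.31 and 9.46 in squamous tissue and 7.01, 7.17 and 7.87 in spheroids. Its falls were -1.51 (adjusted p = 0.000181) and -1.93 (adjusted p = 2.81e-05). SLC25A20, the carnitine carrier of the inner membrane, differed by -1.24 (adjusted p = 6.23e-05) and -1.78 (adjusted p = 4.01e-06). ACAA2, named after its values were seen, was called against ESMG at -1.06 (adjusted p = 0.00731). It was under 2-fold without the ESMG array of pig 39 (-0.87) or the spheroid array of pig 1 (-0.98) or 2 (-0.83). Against squamous tissue ACAA2 was at -0.82 (adjusted p = 0.0283). That adjusted p was 0.0518 to 0.118 without the squamous array of pig 37 or 40 or the spheroid array of pig 1 or 2.

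Among 16 regulators of mitochondrial transcription and biogenesis, 6 rose and 2 fell against ESMG and 4 rose and 1 fell against squamous tissue. For this and the next 2 lists, the shares over all genes were 23.9% and 23.6% higher and 17.6% and 17.4% lower. ESRRG, a nuclear receptor of oxidative metabolism, separated all groups at 9.42, 9.91 and 9.09 in ESMG, 7.45, 7.41 and 7.55 in squamous tissue and 6.42, 6.92 and 6.43 in spheroids. It was 4.02-fold higher in ESMG than in squamous tissue (log2 difference 2.01, SE 0.21, adjusted p = 0.00021), and differed by -2.89 between spheroids and ESMG (adjusted p = 1.16e-06). Its difference of -0.88 from squamous tissue (adjusted p = 0.00507) was -1.05 without the spheroid array of pig 2. PPRC1, a coactivator related to PGC-1 that responds to growth stimuli, read 7.78, 7.02 and 7.44 in ESMG and 8.66, 8.72 and 8.50 in spheroids (log2 difference 1.22, SE 0.18, adjusted p = 0.000262). TFB1M, which methylates mitochondrial ribosomal RNA, was one of those that fell against ESMG (-0.53, adjusted p = 0.0358; 0.102 to 0.146 without the ESMG array of pig 39 or the spheroid array of pig 1 or 2; named after its value was seen). Of 10 genes of uncoupling and antioxidant defence, 2 rose and 1 fell against ESMG and 3 rose against squamous tissue: AIFM2, which reduces coenzyme Q, was called higher at 1.18 and 1.49 (adjusted p = 4.40e-05 and 6.93e-06), and the peroxiredoxin PRDX5 lower against ESMG at -1.10 (adjusted p = 0.00196; -0.94 without the spheroid array of pig 3). Of 9 coenzyme Q synthesis genes, 2 rose and 1 fell against ESMG and 1 rose and 1 fell against squamous tissue. The one that fell was COQ8A, at -1.26 and -1.16 (adjusted p = 0.000191 and 0.000347).

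**Figure D5:**
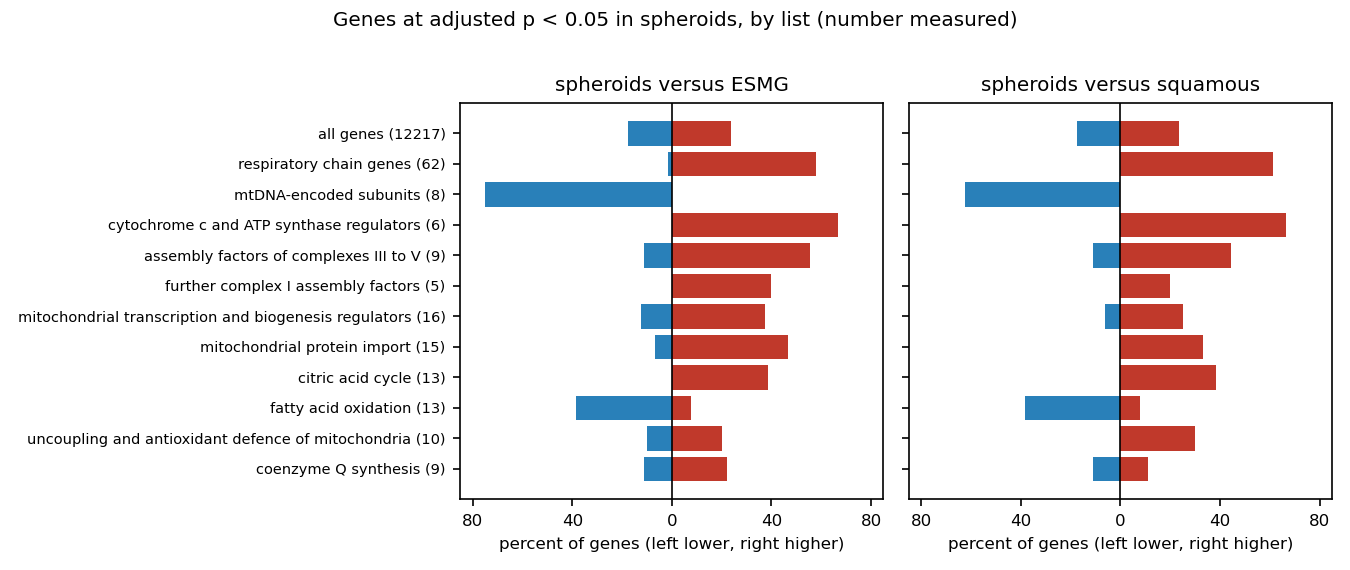
Share of genes (percent, horizontal axis; bars to the left lower, to the right higher in spheroids) at an adjusted p under 0.05 for all genes, the respiratory chain genes and each further list, with the number measured in parentheses. Respiratory chain genes have 36 of 62 higher and 1 lower against ESMG and 38 of 62 higher against squamous tissue, mtDNA-encoded subunits 6 and 5 of 8 lower, and fatty acid oxidation genes 5 of 13 lower in each. All genes have 23.9% and 23.6% higher and 17.6% and 17.4% lower.

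Markers of other cell types moved with the same comparisons. All 6 measured fibroblast markers, all 4 smooth muscle and all 4 endothelial markers were called lower in spheroids against both tissues. Their summed log2 levels per array were 71.2 to 73.8 in ESMG, 71.6 to 73.0 in squamous tissue and 45.2 to 50.5 in spheroids for fibroblasts, 39.2 to 41.8, 43.9 to 45.4 and 24.3 to 26.0 for smooth muscle, and 35.1 to 35.3, 34.9 to 35.9 and 26.1 to 27.3 for endothelium. Of 5 leukocyte markers, 3 were called lower against each tissue and 2 higher against squamous tissue, with sums of 41.4 to 46.9, 38.5 to 42.0 and 36.6 to 36.7. Of 5 skeletal muscle markers, 1 was called lower against ESMG and 2 against squamous tissue, with sums of 32.7 to 39.5, 37.4 to 38.3 and 31.6 to 32.4. On the spheroid arrays the smooth muscle gene PLN was at 4.91, 5.16 and 5.47, the skeletal muscle gene MYL1 at 5.25, 5.34 and 5.73 and the leukocyte gene PTPRC at 5.76, 5.45 and 5.49, near the lower quartiles of those arrays (5.39, 5.44 and 5.36 over all probe sets). MYL1 was low on most tissue arrays too, at 8.47, 5.37 and 5.81 in ESMG and 6.04, 5.73 and 5.59 in squamous tissue. Its spheroid differences did not pass the test (adjusted p = 0.161 and 0.7). Among 4 basal squamous markers 2 were called higher and 1 lower against each tissue, with sums of 37.2 to 39.9, 41.0 to 41.7 and 42.0 to 43.5. The 2 adipocyte markers were called in no comparison, with sums of 11.4 to 11.9, 11.7 to 12.2 and 11.3 to 11.7, and LEP stayed below the lower quartile on all 9 arrays. RMA has no zero point, so these low levels do not show that the transcripts were missing. The part of these cell types in the differences of the respiratory chain genes was not tested.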

How the data were processed

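Total RNA from 9 pig samples was measured on PorGene 1.0 ST arrays (Affymetrix), 1 sample per array. The authors' deposited values are log2 signals after RMA in Affymetrix Expression Console, per the labels; the submitters' processing notes also name Transcriptome Analysis Console 3.0, without a role. RMA draws dim signals together and so understates their differences. No genome build is used, and no coordinates or sequences are given; a planned promoter motif search was not run.

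Of 27558 probe sets, 13157 carried 1 gene symbol, 523 several and 13878 none in the platform annotation. Symbols were updated through the RefSeq gene table, which matched 12841. Each of 12217 genes was represented by its brightest probe set on average; the 62 members came from 68 probe sets.

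Group means were fitted on all 9 arrays with limma 3.58.1 in R 4.3.3 (lmFit, eBayes, 6 residual degrees of freedom, two-sided, Benjamini-Hochberg over all genes). The procedure was tested on simulated data. A gene rose or fell at an adjusted p under 0.05 and was called if it also differed at least 2-fold. Groups come from the labels, which describe biological replicates. Because the labels give ESMG and squamous tissue the same pig numbers, those samples are paired by animal; the correlations of their deviations from the group means were 0.422, -0.147 and -0.168 for pigs 37, 39 and 40. Alternatives were other normalizations, probe set choices, a filter on dim genes, variance models, blocks and leaving out arrays. Values for mtDNA-encoded genes, named companion genes and members not named by the rule were added as alternatives after seeing the data.

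The members and lists were chosen with earlier results of these data known. Named were members called in any comparison, the largest rise and fall of each complex, core subunits, tissue isoforms and up to 3 called genes per further list; others are marked as named later.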

Additional observations from a re-analysis of the deposited data

How the results depend on the processing

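With 3 arrays per group and 6 residual degrees of freedom the median SE of a log2 difference was 0.17, and the deposited values give no signal over background, so dim genes such as COX8H and NDUFA1 are the least certain. Members called higher in spheroids against ESMG numbered 8 after cyclic loess and 12 to 15 when single arrays were left out; their median difference was 0.36 after cyclic loess and 0.46 to 0.57 without single arrays. Against squamous tissue the called members numbered 7 after cyclic loess and 8 to 15 without single arrays, and the range over all settings was 7 to 18. Members at an adjusted p under 0.05 ranged from 27 to 49 and from 31 to 51 in the spheroid comparisons. Between ESMG and squamous tissue they numbered 2 after cyclic loess and with array weights, 0 in the fit of only the 6 tissue arrays, 0 with pig as a fixed replicate block, which changed no result of a member other than SDHAF1, and 0 to 1 without single arrays; none was called under any setting. The median of the mtDNA-encoded genes against squamous tissue was -0.35 with array medians set equal, and 8 of them passed the test with array weights, 7 lower and 1 higher, against 4 to 6 without single arrays. The weights were 8.236 for the spheroid array of pig 1 and 0.626 and 0.581 for those of pigs 2 and 3. Spheroid results with array weights thus rest mostly on 1 array. For the 31 members named by rule, 1792 values under the alternatives left 1740 calls unchanged, while 34 lost a call and 17 gained one. Of the unchanged calls, 49 had a changed sign in differences that did not pass the test. Most of these differences were not called to begin with: 13 members were called against ESMG, 12 against squamous tissue and none between the tissues. Only a called difference can lose a call, so the unchanged share says little about how stable the calls are. Only 6 of the 62 members have more than 1 probe set, so the probe set alternatives vary little for the others. For the other members, 1780 of 1792 calls were unchanged, 75 of these with a changed sign, and 10 were gained. The sign changed, with the difference past the test on at least 1 side, for SDHD between spheroids and ESMG (-0.20 as reported, 0.66 on the dimmest probe set) and for NDUFA6 between spheroids and squamous tissue (0.56 as reported, -0.59 on the dimmest and -0.02 for the mean of its probe sets). The dimmest SDHD probe set lay near the lower quartile on the tissue arrays. For the mtDNA-encoded and companion genes, 1580 of 1621 calls were unchanged, 12 of these with a changed sign, 26 were lost and 15 gained. The cause of these shifts was not tested.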
